A study of Mus musculus with 2 samples.

Results

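The cells described here are the gamma delta T cells of mouse kidney, T lymphocytes whose antigen receptor pairs a gamma with a delta chain in place of alpha and beta. They were picked from a droplet single-cell RNA data set by a gate on unique molecular identifiers (UMIs), the tags that mark single captured transcripts. A cell entered the gate with 2 or more UMIs of the CD3 genes Cd3d, Cd3e and Cd3g summed, 2 or more of Trdc and Tcrg-C1 summed, and no UMI of Cd4, Foxp3, Cd8a or Cd8b1. Trdc encodes the constant region of the delta chain and Tcrg-C1 a constant region of the gamma chain. Cells also needed 500 UMIs, 200 genes and a mitochondrial share of at most 50%. The gate held 96 of 28678 barcodes, 17 from the control library and 79 from the folic acid (FA) library. Both libraries came from kidney of wild-type mice, 1 a control and 1 with nephropathy brought on by FA, a vitamin that injures kidney tubules at high dose. The sources used here give no age, dose, time after FA or number of animals.

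Gamma delta T cells leave the thymus already set up for one of a few responses. Some make interleukin 17, sit in barrier and other tissues, and share the scavenger receptor genes Scart1 and Scart2 and the kinase gene Blk. Others make interferon gamma, carry natural killer (NK) receptors and resemble cytotoxic T cells. In injured kidney, interleukin 17 is known to act on tubule cells and to draw in neutrophils.

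Each group is 1 library, so differences are between these libraries, with no replicate check and no p-value. Intervals are at the 95% level and reflect counting error alone. Xist had 15 UMIs in control and 104149 under FA, and Ddx3y, on the Y chromosome, 3928 in control and 0 under FA. Treatment therefore cannot be told apart from sex. The gene names listed also differ between the libraries, as described below, and treatment cannot be told apart from that difference either. The members had 92023 summed UMIs in control (median 3882 per cell, range 2411 to 16217) and 405951 in FA (median 3316, range 1555 to 44584). Medians of the comparison gates lay close to these, from 2948 to 3621 in control and from 2243.5 to 3236 in FA. Large cells were less even: 8 of 79 FA members had above 10000 UMIs. In the FA CD4, CD8 and NK gates, 11 of 314, 21 of 911 and 9 of 426 cells did. From the largest down, those 8 members held 0, 0, 3, 1, 3, 8, 1 and 1 UMIs of Cd3d, against a median of 3 over the FA members. Gate sums, and so the ratios and list medians below, weigh cells by their UMIs. The libraries shared 54 barcodes, 0 of them among the members.

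The gate held a larger share of the filtered cells in FA than in control. It was 0.270% of 6295 cells in control (Clopper-Pearson interval 0.157 to 0.432) and 0.496% of 15922 in FA (0.393 to 0.618), a ratio of 1.84 (1.08 to 3.31). Of CD3-positive cells the gate was 2.69% of 633 in control (1.57 to 4.27) and 3.59% of 2198 in FA (2.86 to 4.46), so these intervals overlapped. The gene names of the libraries differ: the control library lists Tcrg-C1 and the FA library lists that gene as Trgc1. The rule as given therefore worked on Trdc alone in FA. Adding Trgc1 to the sum gave 17 and 87 members, and Trdc alone in both libraries gave 13 and 79.

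Values on either side of the threshold are given as a description. Among FA cells that met the rest of the rule, 71.0% of the 796 with no UMI of Trdc had a UMI of Trac, the constant region of the alpha chain, and 6.53% had one of Il17a. At 1 UMI of Trdc, just outside, these shares were 47.8% and 17.4% of 23 cells. At 2 UMIs, just inside, they were 21.1% and 42.1% of 19 cells. In control, the 6 cells with 1 UMI all held Trac, as did 1 cell with 2 UMIs, 2 of the 5 cells with 3, and 3 of the 11 with 4 or more. The receptor gene Cd8a or Cd8b1 kept 5 control and 16 FA cells with enough Trdc and Tcrg-C1 out of the gate.

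The receptor genes matched the label in part. Trdc, which the rule used, had 90 UMIs in 14 of 17 control members (median 4, highest 16) and 450 in all 79 FA members (median 4, highest 31). Trdc also occurred in the NK gate, with 9 UMIs in 7 of 53 control cells and 79 UMIs in 65 of 426 FA cells. Trgc1 had 46 UMIs in 11 control members and 79 UMIs in 34 FA members. The other gamma constant genes Trgc2 and Trgc4, which the rule did not use, were in 9 and 8 control members and in 28 and 28 FA members. Trac had 14 UMIs in 6 control members and 21 UMIs in 13 FA members. The control members without Trdc entered by Tcrg-C1 alone. Each of them also held alpha and beta chain genes, with 2, 2 and 4 UMIs of Trac and 7, 7 and 4 of Trbc2. On a scale where the UMIs of a gate sum to 1000000 (CPM), Trac stood at 152 in control and 51.7 in FA, below the CD4 gate (597 and 636) and the CD8 gate (531 and 596) and above the NK gate (3.23 and 29.4). The beta chain constant gene Trbc2 was in 59 FA members at 542 CPM, against 972 in the CD4 gate, 1210 in the CD8 gate and 158 in the NK gate. In control it was in 15 members at 869 CPM, against 1152, 951 and 229, so there it lay within 1.5-fold of both T cell gates. With Trac, Trbc1 and Trbc2 all required at 0, 1 control and 10 FA cells were left. The parts that these genes share can move reads between them: 38.2% of the 60-base stretches of Trbc1 transcripts also occur in Trbc2, and 11.9% of those of Tcrg-C1 in Tcrg-C2, whereas Trdc and Trac share 0.

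**Figure D1:**
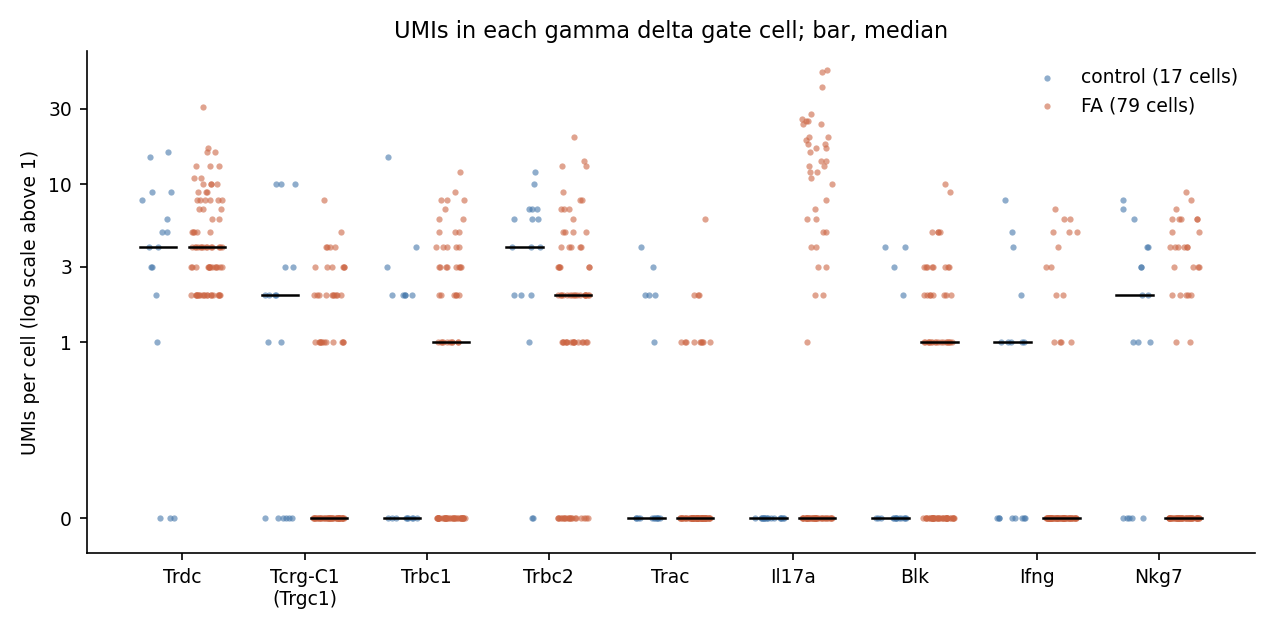
UMIs of 9 genes in each cell of the gamma delta gate (vertical axis, log scale above 1), 17 control cells in blue and 79 FA cells in orange, with a bar at the median. Trdc has a median of 4 in both libraries, Trac a median of 0 in both, and Il17a, listed at 0 throughout the control library, reaches 53 UMIs in FA.

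In the mm10 assembly the genes behind these names lie at 3 receptor loci. Trdc is on chromosome 14 from 54142851 to 54148868, inside the alpha chain locus and upstream of Trac (54220521 to 54224206). Tcrg-C1 is on chromosome 13 from 19214103 to 19217024, and Trbc1 (41538218 to 41539881) and Trbc2 (41546730 to 41548352) are neighbours on chromosome 6. All are annotated as receptor constant-region genes on the plus strand.

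Variable genes were read in FA, since all those in the file but Trgv2 were listed at 0 throughout control. Trdv4, a delta variable gene on chromosome 14 from 54074905 to 54075515, had 83 UMIs in 23 FA members, 51.6% of its 161 UMIs in the library. It had 0 UMIs in the CD4, CD8 and B cell gates, and 46 UMIs in 37 of the 426 cells of the NK gate. The CD4 and CD8 gates left out cells with Trdc, the constant gene of the same chain, so their 0 is not independent of the gating. Trgv2 was in 26 FA members with 45 UMIs, Trgv1 and Trgv6 in 7 each, and Trgv4 in 4. Of the 7 members with Trgv6, 6 also held Trdv4. Trgv2 had 2 UMIs in 2 of the 17 control members.

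Signs of other cells in the gate were counted as well. At least 2 UMIs of B cell markers were in 5 control and 3 FA members, and of myeloid markers in 0 and 7. A score from simulated pairs of cells placed 5 control and 12 FA members among likely doublets. Summed over the gate, myeloid markers had 1 UMI in control, with 1 of 13 genes above 0, and 1051 UMIs in 14 FA members, with 451 in the highest and 13 of 13 genes above 0. Proximal tubule markers had 719 UMIs in 11 control members, 689 of them in 1 member, and 648 in 55 FA members (highest 205). Endothelial markers had 284 UMIs in 6 control members (highest 90, 8 of 8 genes above 0) and 27 UMIs in 23 FA members (highest 3, 3 of 8 genes). NK markers had 6 UMIs in 4 control members and 138 UMIs in 11 FA members (highest 53), with 2 and 7 of 9 genes above 0. Their part in the results below was not tested, and values without likely doublets are given where they differ.

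The first comparison set the gate against conventional T cells and NK cells of the same library, chosen by gates of the same kind. These held 98 CD4, 283 CD8 and 53 NK cells in control and 314, 911 and 426 in FA. Genes with at least 20 UMIs in both sides together were taken as measured, and were counted higher or lower at 1.5-fold. In FA, 22.4% of 10900 measured genes were higher and 16% lower in the gamma delta gate than in the pooled CD4 and CD8 gates, with a median log2 ratio of 0.10. In control, 28.4% of 8818 were higher and 16% lower, with a median of 0.27. A count for a list of genes is read against these shares. Most pooled cells were CD8 cells, so the gate was also set against the CD4 and CD8 gates singly. In FA, 16% of 7861 genes were higher and 16.2% lower than in the CD4 gate, and 23% of 10172 higher and 15.6% lower than in the CD8 gate. In control these shares were 24.9% and 20% of 4681 genes, and 28.6% and 17.8% of 7717.

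Genes of the interleukin 17 programme of gamma delta cells stood higher in the gate in both libraries. All 33 on the list were measured in FA, and 28 were higher and 0 lower than in the pooled CD4 and CD8 gates, with a median log2 ratio of 2.37. In control, 18 could be measured, of which 16 were higher and 1, Lgals3, was lower, with a median of 1.63. Against the CD4 gate of FA, 22 of 32 were higher and 1 lower (median 1.68, with 1 gene at its bound), and against the CD8 gate 30 of 33 were higher and 0 lower (median 2.92). Lgals3 encodes galectin 3. The 5 that were not past 1.5-fold in FA were Icos, Lgals3, Il18r1, Ccr2 and Il22.

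Il17a, the gene of interleukin 17A (chromosome 1 from 20730905 to 20734496, plus strand), had 597 UMIs in 38 of the 79 FA members, or 48.1% (36.7 to 59.6). Among those 38 the median was 13.5 UMIs and the highest 53, and the 5 highest cells held 33.3% of the total. Thinned to 1000 UMIs per cell, 40.5% of members held Il17a (29.6 to 52.1). The share was 10.8% of 314 cells in the CD4 gate (7.62 to 14.8) and 0.878% of 911 in the CD8 gate (0.380 to 1.72). It was 0 of 426 in the NK gate and 0 of 562 in the B cell gate, which allow up to 0.704% and 0.534%. As a gate sum, Il17a stood at 1471 CPM against 249 in the CD4 gate and 29.3 in the CD8 gate, 17-fold above the pooled gates (14.9 to 19.3). The 79 members, 0.496% of the filtered FA cells, held 33.7% of the library's 1773 UMIs of Il17a. CD3-positive cells outside the gamma delta, CD4 and CD8 gates held 36.0% and the CD4 gate 17.1%. Il17a was listed at 0 throughout the control library, as were Il17f, Il22 and Il23r. Every gene above 0 in a library was present in at least 10 barcodes of it, so a gene in fewer control barcodes would also be listed at 0, and no fold is given for these.

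The other interleukin 17 genes had fewer UMIs. Il17f, which lies next to Il17a and encodes a related cytokine, had 23 UMIs in 8 FA members, 39.0% of the library's 59, and 7 of these 8 members also held Il17a. Il23r, a receptor chain for interleukin 23, had 22 UMIs in 17 members, at 54.2 CPM against 7.39 in the CD4 gate and 1.16 in the CD8 gate. Il22 had 7 UMIs in 2 members, at 17.2 CPM against 18.9 in the CD4 gate and 16.6 in the CD8 gate, so it was not set apart in this gate.

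The promoters of Il17a and Il17f are printed because these are the genes of the interleukin 17 cytokines themselves, and that of Ifng because it ran the other way in FA. Each line gives the 250 bases before the RefSeq start site in GRCm38.p6, 5′ to 3′ on the gene's strand, with the half-site shared by many nuclear receptors, AGGTCA or its reverse complement TGACCT, in capitals.
Il17a, chr1:20730655-20730904, plus strand: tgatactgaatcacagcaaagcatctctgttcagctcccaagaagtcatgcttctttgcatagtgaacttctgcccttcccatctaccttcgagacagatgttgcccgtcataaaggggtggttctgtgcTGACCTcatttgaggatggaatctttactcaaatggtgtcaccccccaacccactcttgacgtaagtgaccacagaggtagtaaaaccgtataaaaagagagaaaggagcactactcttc
Il17f, chr1:20784271-20784520, minus strand: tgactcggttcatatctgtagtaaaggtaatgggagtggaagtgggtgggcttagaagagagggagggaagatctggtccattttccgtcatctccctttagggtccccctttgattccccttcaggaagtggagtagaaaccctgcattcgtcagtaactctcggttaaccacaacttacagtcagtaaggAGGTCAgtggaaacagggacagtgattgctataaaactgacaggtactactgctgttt
Ifng, chr10:118440796-118441045, plus strand: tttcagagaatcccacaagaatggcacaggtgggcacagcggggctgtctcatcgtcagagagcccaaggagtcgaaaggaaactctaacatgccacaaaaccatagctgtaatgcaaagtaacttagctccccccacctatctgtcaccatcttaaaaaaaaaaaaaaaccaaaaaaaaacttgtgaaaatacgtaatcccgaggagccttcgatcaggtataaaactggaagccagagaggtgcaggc
The letters occurred 120 bases before the start in Il17a and 58 bases before it in Il17f, and not in the Ifng window. The Il23r window, not printed, also held them, 66 and 229 bases before the start. They occurred in 3740 of 27025 windows of this length (13.8%), so a match is a description of these letters and not a binding site.

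Transcription factors of the programme were higher in the gate, Maf and Rora in both libraries. Maf, a factor of interleukin 17 and regulatory cells, was 1.92-fold higher in FA (1.61 to 2.29) and 3.73-fold in control (2.83 to 4.85). In control, 33 of its 67 UMIs were in 1 of 9 members with Maf, and without that member it was 2.30-fold higher (1.57 to 3.27). Sox13, a fate factor of gamma delta cells, was at 54.2 CPM in FA against 1.64 in the CD4 gate and 1.45 in the CD8 gate. Zbtb16, which encodes the innate-like T cell factor PLZF, was 24.9-fold higher in FA (12.1 to 54.1). Rora was 2.39-fold higher in FA (1.95 to 2.91) and 2.21-fold in control (1.37 to 3.40).

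Receptors and signalling genes of the programme gave ratios of like or larger size. Blk was at 239 CPM in 40 FA members against 2.46 in the CD4 gate and 0.872 in the CD8 gate, a ratio of 186 (82.2 to 518). The B cell gate, where this kinase is known to act, stood at 38.8 CPM. Blk was in 4 control members with 13 UMIs, against 3 in the pooled gates. Scart1 and Scart2, neighbours on chromosome 7 (140218267 to 140231145 and 140247284 to 140300736), were in 29 and 21 FA members. The members held 75.5% of the library's 94 UMIs of Scart1 and 32.6% of its 129 of Scart2. Scart1 was listed at 0 throughout control, and Scart2 had 7 UMIs in 2 control members. Il1r1, the interleukin 1 receptor, was 14.6-fold higher in FA (8.06 to 26.8), and Ccr6, a homing receptor of interleukin 17 cells, 4.89-fold (3.05 to 7.66).

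Ramp1, part of the receptor for the neuropeptide CGRP, led the genes named by the ranking rule in the comparison with the pooled CD4 and CD8 gates. It was at 308 CPM in 44 FA members and 380 CPM in 8 control members, 6.67-fold (5.31 to 8.36) and 11.4-fold (7.33 to 17.6) higher. Next came the ion channel genes Tmem176a, 5.16-fold and 3.71-fold higher in FA and control, and Tmem176b, 5.63-fold and 3.31-fold higher. In FA, 1 member held 28.2% of the UMIs of Tmem176a, and 1 held 37.5% of those of Tmem176b. Without the member with most UMIs of each gene, they were 4.16-fold (3.50 to 4.93) and 3.95-fold (3.36 to 4.63) higher. The transcription factor Klf4 was 2.86-fold and 2.98-fold higher, the phosphatase Dusp1 2.02-fold and 3.55-fold, Ikzf3 2.03-fold and 3.25-fold, Rgcc 2.26-fold and 2.77-fold, and the stress gene Gadd45b 1.52-fold and 3.97-fold. In control, 16 of the 34 UMIs of Ikzf3 were in 1 of 10 members, and without the member with most UMIs of each gene Ikzf3 was 1.95-fold (1.13 to 3.16) and Rgcc 1.79-fold (1.07 to 2.82) higher. Gadd45b in FA was 1.40-fold higher without such a member, below the 1.5-fold limit. Cd81, a tetraspanin of many cell types, was named as well, but 40.0% of its 100 UMIs in FA lay in 1 of 11 members, and its log2 ratio turned to -1.01 without members above 10000 UMIs. In control its log2 ratio was 0.09 without the member with most of its UMIs. The 5 lowest were Ccl5, Trac, Gzma, the integrin gene Itga4 and the receptor gene Cd6. Itga4 was at a ratio of 0.281 in FA (0.203 to 0.380) and 0.124 in control (0.0338 to 0.320).

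**Figure D2:**
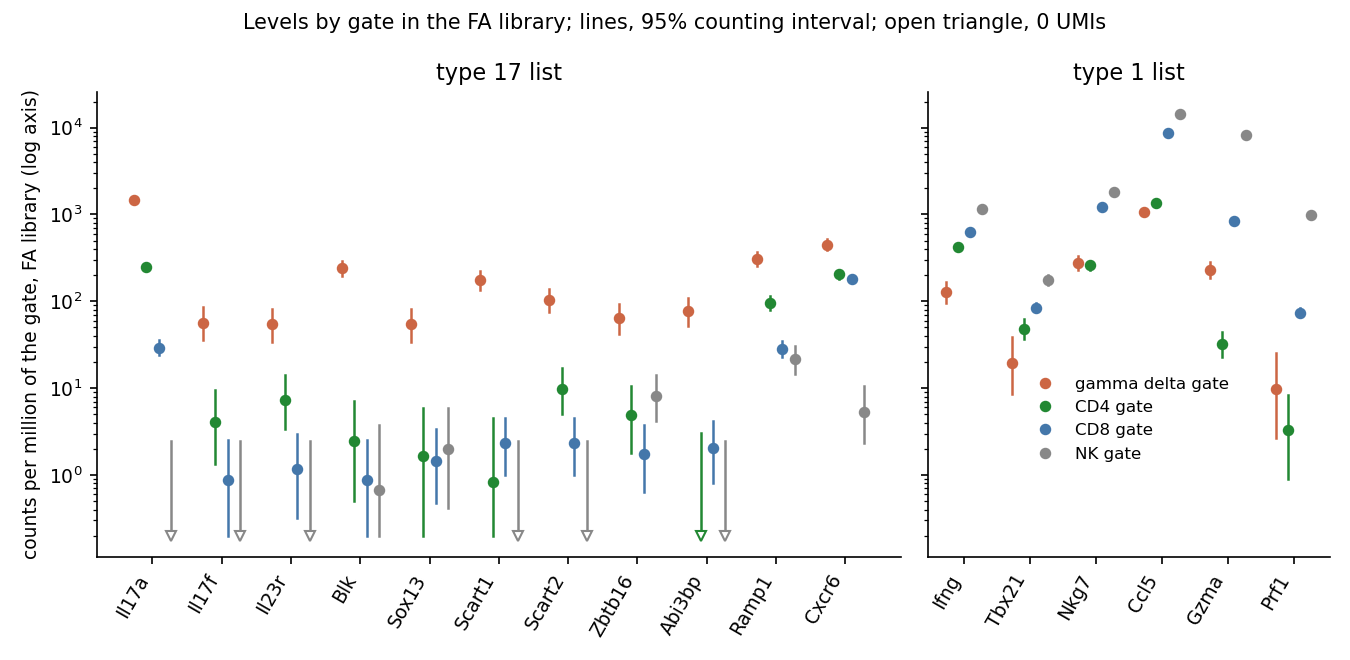
Levels in CPM (log axis) of 11 genes of the interleukin 17 list and 6 of the type 1 list in the gamma delta, CD4, CD8 and NK gates of the FA library, with lines for the counting interval (clipped at the lower edge) and open triangles for 0 UMIs. Il17a stands at 1471 CPM in the gamma delta gate and 249 in the CD4 gate, and Ifng at 128 in the gamma delta gate and 1163 in the NK gate.

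Type 1 and cytotoxic genes were mostly lower in the gate than in CD8 cells in FA, whereas against CD4 cells more were higher than lower. Of 27 measured, 2 were higher and 20 lower than in the CD8 gate, with a median log2 ratio of -1.25. Of 21 measured against the CD4 gate, 9 were higher and 4 lower, with a median of 0.37. Against the pooled gates, 2 of 27 were higher and 16 lower, with a median of -0.94. Ifng, the gene of interferon gamma, was in 15 of 79 FA members at 128 CPM, against 423 in the CD4 gate, 634 in the CD8 gate and 1163 in the NK gate, a ratio to the pooled gates of 0.221 (0.165 to 0.291). Tbx21, the factor T-bet that drives it, was at 0.263 (0.113 to 0.524). Against the pooled gates, among granule and chemokine genes, Nkg7 was at 0.285 (0.234 to 0.343), Ccl5 at 0.159 (0.144 to 0.174), Gzmb at 0.219 (0.138 to 0.330) and Prf1 at 0.177 (0.0479 to 0.459). Gzma, at 0.368, had all its 93 UMIs in 5 members. Against the CD4 gate alone, Ifng (0.303) and Tbx21 (0.407) were lower, Nkg7 (1.07), Gzmb (0.972) and Ccl5 (0.782) were within 1.5-fold, and Gzma (7.15) and the NK receptor gene Klrd1 (5.07) were higher. Tnf was higher than in the pooled gates, at 86.2 CPM (1.95-fold, 1.32 to 2.80), as was Fcer1g, an adaptor of receptors on innate cells (3.30-fold, 2.77 to 3.92). The UMIs of Fcer1g lay in few members, 92 of them in 3 members with Il17a and 78 in 11 without.

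In control the type 1 list did not lean as far. Of 26 measured, 6 were higher and 12 lower, with a median of -0.29 with 6 genes at their bound, and of 0.44 without the 5 members that held B cell UMIs. Against the CD4 gate, 7 of 17 were higher and 4 lower (median 0.28, with 1 at its bound), and against the CD8 gate 5 of 26 were higher and 12 lower (median -0.47, with 6 at their bound). Ifng was in 9 of the 17 control members at 261 CPM, against 113 in the CD4 gate and 144 in the CD8 gate, 1.93-fold higher than in the pooled gates (1.21 to 2.94), and 1.33-fold (0.748 to 2.20) without the member with most of its UMIs. Klrk1, the activating receptor NKG2D, was 2.33-fold higher (1.79 to 3.01). Nkg7 was lower, at 0.409 (0.294 to 0.555), and Ccl5 at 0.0539 (0.0377 to 0.0747), with 36 UMIs in 3 members.

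Against the NK gate of FA, 20.5% of 8338 measured genes were higher and 17.9% lower. Of the interleukin 17 list, 28 of 30 measured genes were higher and 0 lower, with a median log2 ratio of 3.93 with 7 genes at their bound. Of the type 1 list, 1 of 26 was higher and 23 lower, with a median of -2.96. In control, where 23% of 3458 genes were higher and 16.3% lower, the counts were 13 of 14 higher and 0 lower, and 1 of 23 higher and 17 lower. The named genes higher than in NK cells were Cxcr6, a residency receptor, Bcl11b, a T lineage factor, Ramp1, Il7r and Icos. The named genes lower than in NK cells were Gzma, Prf1, Klra4, Klre1 and Tyrobp. Bcl11b was 22.4-fold higher in FA (12.6 to 42.7) and 14.4-fold in control (6.21 to 38.9). Tyrobp, the signalling adaptor of NK receptors, was at 0.106 in FA (0.0848 to 0.131) and had 0 UMIs in the control members.

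Single cells were then sorted by 7 interleukin 17 genes (Il17a, Il17f, Il23r, Blk, Sox13, Scart1 and Scart2) and 6 type 1 genes (Ifng, Tbx21, Eomes, Klrd1, Nkg7 and Gzmb). Of the 79 FA members, 42 held a UMI of the first set alone, 24 of the second set alone, 11 of both and 2 of neither. In the CD8 gate the counts were 6, 819, 19 and 67 of 911, and in the NK gate 1, 420, 1 and 4 of 426. Of the 562 B cells, 92 held the first set alone, a set that includes Blk. Of the 17 control members, 2 held the first set alone, 10 the second alone and 5 both, in a library where Il17a, Il17f, Il23r and Scart1 were listed at 0.

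Il17a and Ifng rarely met in the same cell. Of 38 FA members with Il17a and 15 with Ifng, 1 had both. Of the 27 with Nkg7, 2 held Il17a and 14 held Ifng. In contrast, 31 of the 40 with Blk held Il17a.

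Splitting the FA members by Il17a showed which genes went with it. This split and the next were chosen after values were seen, and cells of 1 library are not replicates of a condition. The 38 members with Il17a (median 3531 UMIs) and the 41 without (median 3181) had like depth. Areg, the repair factor amphiregulin, was 5.92-fold higher in members with Il17a (2.52 to 16.99), in 11 against 2 cells. Abi3bp, a matrix-binding protein gene, was 5.33-fold higher (1.86 to 21.0), Blk 2.86-fold, Scart2 2.90-fold and the checkpoint receptor Pdcd1 2.62-fold. Itgae, which encodes the CD103 integrin that binds epithelium, was 3.03-fold higher (1.199 to 9.09). In the members without Il17a stood Nkg7, with 105 of its 112 UMIs, Ifng, with 51 of 52, Klrd1, with 47 of 49, and Ly6c2, with 46 of 47. The chemokine gene Xcl1 (39 UMIs) and the receptor gene Cd160 (22) had 0 UMIs in the members with Il17a. Lck, the kinase next to the receptor, had 5 UMIs in members with Il17a and 40 in those without. Trac was in 7 and 6 members.

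The scavenger receptor genes split the FA members further. Scart1 without Scart2 was in 25 members (median 3678 UMIs), Scart2 without Scart1 in 17 (3414), both in 4 (4742.5) and neither in 33 (3037). Trdv4 was in 20 of the 25 members with Scart1 alone, or 80.0% (59.3 to 93.2), in 1 of the 17 with Scart2 alone and in 2 of the 33 with neither. Trgv6 followed the same division, in 6, 0 and 1 members. Pdcd1 was in 19 of the 25 and 5 of the 17, and Ccr6 ran the other way, in 3 of the 25 and 9 of the 17. Trgc1 was in 18 and 9 members, and in 5 of the 33 with neither.

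Both Scart groups carried the interleukin 17 genes. Il17a was in 14 of the 25 members with Scart1 alone (152 UMIs), 13 of the 17 with Scart2 alone (240 UMIs) and all 4 with both (100 UMIs). Il17f was in 2 and 5 members, Il23r in 7 and 7, and Blk in 19 and 13. Ifng was in 0 and 1 of these members, and Nkg7 in 1 and 1. Mki67, a marker of cycling cells, was in 3 and 4 members and in 0 of the 33 with neither. It had 9, 7 and 1 UMIs in the members with Scart1 alone, and 21, 2, 1 and 1 in those with Scart2 alone. Every member with more than 1 UMI of Mki67 had above 10000 UMIs in total.

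The 33 members with neither receptor held most of the type 1 genes. Nkg7 was in 25 of them, Ctsw in 24, Ccl5 in 22, Lck in 18, Klrd1 and Cd2 in 15 each, Ifng in 14, Xcl1 in 13 and Cd160 and the naive T cell factor gene Lef1 in 12 each. Trgc4 was in 15 of them, against 5 of the 25 with Scart1 alone. The beta chain gene Trbc2 was in 28 of the 33 at 953 CPM, against 256 CPM with Scart1 alone and 577 with Scart2 alone. In the 25 of the 33 with Nkg7, Klrd1 or Ifng, Trbc2 was in 23 at 1151 CPM. That level lies between those of the FA CD4 and CD8 gates given above. Trac was in 4 of the 33, 3 of the 25 with Scart1 alone and 5 of the 17 with Scart2 alone. Il17a was in 7 of the 33. Of those 7, 6 lay among the 8 members without Nkg7, Klrd1 and Ifng.

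**Figure D3:**
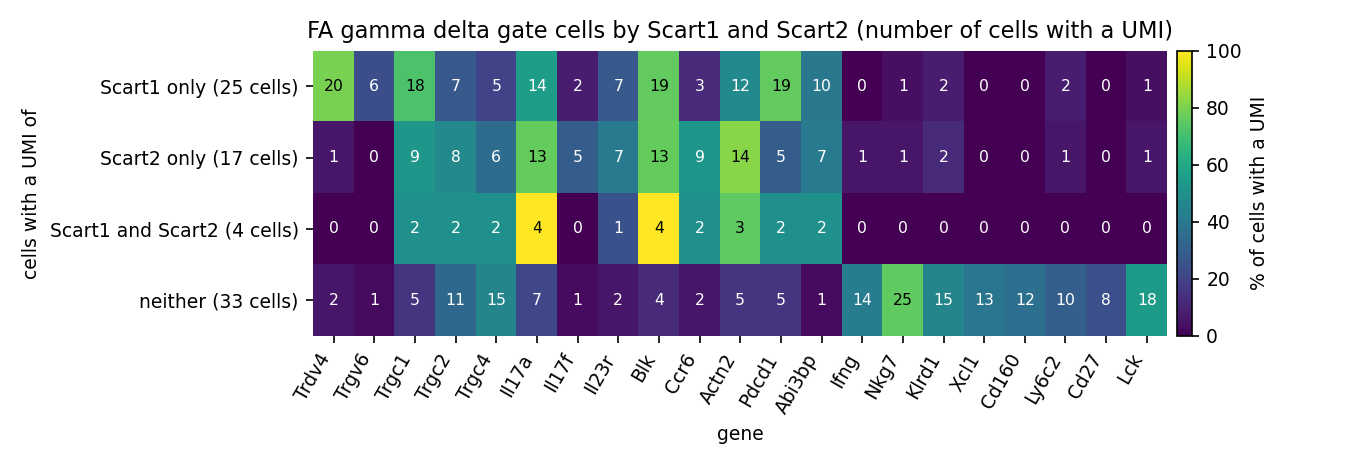
Number of FA gamma delta gate cells with a UMI of each gene (digits), coloured by share of the row's cells, for cells with Scart1 alone, Scart2 alone, both or neither. Trdv4 is in 20 of 25 cells with Scart1 alone and 1 of 17 with Scart2 alone, and Nkg7 is in 25 of 33 cells with neither.

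Receptor signalling and co-stimulation genes stood low in the gate in FA, as sums that include the 8 members above 10000 UMIs. Of 17 measured genes of the CD3 complex and its signalling, 3 were higher and 10 lower than in the pooled CD4 and CD8 gates, with a median log2 ratio of -0.82. Lck was at 111 CPM against 374 in the CD4 gate and 439 in the CD8 gate, a ratio of 0.263 (0.191 to 0.353). Cd2, Cd5, Cd6 and Lat, surface and adaptor genes of the same apparatus, were lower as well, and the kinase genes Blk and Lyn were higher with Cd247, the zeta chain. Of 17 co-stimulation and checkpoint genes, 5 were higher and 10 lower (median -0.65). Cd28 was at 64.0 CPM against 576 and 483, a ratio of 0.126 (0.0823 to 0.185), and Ctla4 at 0.218 (0.119 to 0.369). Pdcd1 was higher, at 170 CPM against 64.0 in the CD4 gate and 42.4 in the CD8 gate (3.54-fold, 2.66 to 4.65), as was Havcr2 (3.56-fold, 2.10 to 5.81). In control, Lck (0.514) and Cd28 (0.545) were also lower.

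Several residency genes stood higher. Of 13 tissue residency genes in FA, 6 were higher and 0 lower than in the pooled gates (median 0.31), as were 5 and 0 against the CD4 gate (0.41) and 6 and 1 against the CD8 gate (0.51). Cxcr6 was in 60 of 79 members at 448 CPM against 204 and 182, 2.38-fold higher (2.02 to 2.80), and in 14 of 17 control members at 978 CPM, 2.48-fold higher (1.97 to 3.09). Itgae was 3.50-fold higher in FA (2.23 to 5.36), and Ikzf2, which encodes Helios, 3.80-fold (2.98 to 4.80). Cd69, another residency marker, was not past 1.5-fold, at 690 CPM against 759 and 782. Secreted factors were higher than in CD8 cells, with 10 of 14 higher and 1 lower (median 1.12, with 1 at its bound). Against the CD4 gate 2 of 12 were higher and 3 lower (median 0.11, with 1 at its bound), and against the pooled gates 9 of 14 were higher and 2 lower (median 0.77, with 1 at its bound). Areg was at 126 CPM in 13 members, against 135 in the CD4 gate and 18.9 in the CD8 gate, 2.55-fold above the pooled gates (1.84 to 3.46). Csf2, the cytokine GM-CSF, was 6.65-fold above them (2.86 to 14.7). Of 12 naive and lymphoid homing genes, 0 were higher and 7 lower (median -0.64), also as sums over all members, large ones included.

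Other lists were set against the pooled gates in the same way. Of 25 interferon-stimulated genes in FA, 1 was higher and 11 lower (median -0.49), as sums that include the 8 members above 10000 UMIs. Of 24 cell cycle genes, 3 were higher and 3 lower (median 0.14), and against the CD4 gate alone 0 were higher and 7 lower (median -0.24). Of 25 immediate early genes, 11 were higher and 2 lower in FA (median 0.39), and 18 higher and 1 lower in control (median 1.06). The series concerns gasdermins, which form pores in dying cells, and of 8 gasdermin and protease genes 0 were higher and 7 lower in FA (median -1.17). Gsdmd, the one not past 1.5-fold, was at 27.1 CPM with 11 UMIs, against 20.5 in the CD4 gate, 22.7 in the CD8 gate and 30.1 in the NK gate. Gsdme had 2 UMIs in the FA members and 1 in the control members. Casp1, which cleaves gasdermin D, was at 19.7 CPM against 62.4 in the CD4 gate and 37.2 in the CD8 gate.

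The last comparison was FA against control within the gate, over 79 and 17 cells. Of 4179 measured genes, 26.5% were higher and 21.4% lower in FA, with a median log2 ratio of 0.05. Those counts, 1109 and 895, were 720 and 560 without members above 10000 UMIs, and the lower count was 504 without likely doublets. Of the interleukin 17 list, 27 genes were measured, 7 higher and 7 lower, with a median of 0.24. Il17a, Il17f, Il22, Il23r and Scart1, with 597, 23, 7, 22 and 71 UMIs in FA, are not among these 27, since each was listed at 0 throughout control and got no fold. Blk was at 239 CPM in FA and 141 in control (1.69, 0.944 to 3.29).

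Type 1 genes differed among themselves. Of 19 measured, 7 were higher and 10 lower in FA, with a median of -0.68. The median was -1.24 without likely doublets and turned to 0.30 when both libraries were gated on Trdc alone, which left 13 control members. Ifng was at 128 CPM in FA and 261 in control (0.491, 0.297 to 0.833), and at 0.713 (0.401 to 1.34) without the control member with most of its UMIs. The FA gate worked on Trdc alone, so the 2 gates were not alike. Control members with fewer than 2 UMIs of Trdc held 4, 5, 1 and 0 of the 24 control UMIs of Ifng. Ifng was in 19.0% of FA members (11.0 to 29.4) and 52.9% of control members (27.8 to 77.0), and in 15.2% and 23.5% at 1000 UMIs per cell. In the B cell gates, which should lack Ifng, the shares were 1.25% in FA and 0.733% in control, at median depths of 2243.5 and 2948 UMIs. Klrk1 was at 0.264 (0.188 to 0.371), Ly6c2 at 0.313 (0.197 to 0.502), Cd27, a receptor of interferon gamma-making gamma delta cells, at 0.170 (0.0633 to 0.440) and Nkg7 at 0.604 (0.4205 to 0.884). Without the control member with most of its UMIs, Nkg7 was at 0.725 (0.490 to 1.10). The chemokine gene Ccl4 was higher, with 281 UMIs in 14 FA members against 9 in 4 control members (7.08-fold, 3.68 to 15.6). It was 20.3-fold higher (6.87 to 98.9) without the control member with most of them, and 4.76-fold (2.45 to 10.6) without such an FA member. Of the 281 UMIs, 236 were in 5 members with Il17a.

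Other receptors and secreted factors of T cells differed too. Cxcr6 was at 448 CPM in FA and 978 in control (0.458, 0.354 to 0.597), Cd28 at 0.281 (0.152 to 0.525) and Maf at 0.501 (0.373 to 0.679). Without the control member that held 49.3% of its UMIs there, Maf was at 0.813 (0.557 to 1.22), within 1.5-fold. Ltb, which encodes lymphotoxin beta, was 2.09-fold higher in FA (1.59 to 2.79), in 70 of 79 members and 15 of 17. Areg had 51 UMIs in FA and 0 in control, at least 3.85-fold higher with a floor of 3 counts over the gate. Of 13 cell cycle genes, 12 were higher in FA and 0 lower (median 1.40, with 6 at their bound). Mki67 had 42 UMIs in 7 FA members, 95.2% of them in 5, and 0 in control. Members above 10000 UMIs held 21, 9, 7 and 2 of the 42. The cell cycle median was 0.61 without likely doublets. In the CD4 and CD8 gates of the same libraries, 18 of 24 cell cycle genes were higher in FA, where 18.5% and 13.5% of all measured genes were.

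The genes that the ranking rule named over all members mostly lay in a few cells. Higher in FA were Cryab, Atf3, S100a9, Tsc22d1, Cebpd, S100a8, Adamts1, Akap12, H2ac8 and Pdia6. The neutrophil genes S100a8 and S100a9 had 175 and 253 UMIs, each in 2 FA members. Of the UMIs of Akap12, 96.0% were in 1 FA member, as were 91.2% of those of Adamts1, 79.0% of Tsc22d1, 73.2% of Cryab and 71.1% of Cebpd. Without members above 10000 UMIs, the log2 ratios of Akap12, Adamts1 and Cebpd turned to -0.95, -1.36 and -0.95. Without the FA member with most of their UMIs, the ratio of Tsc22d1 was 4.202 (1.57 to 15.9), of Cebpd 4.46 (1.14 to 38.2) and of Cryab 8.40 (1.41 to 341.9). Atf3, a stress-induced transcription factor, was spread over 48 FA members with 813 UMIs and 2 control members with 9 (20.5-fold, 10.7 to 44.9). Its ratio was 173 (31.0 to 6858) without the control member with most of them, and 18.6 (9.73 to 40.8) without such an FA member. Lower in FA were Igfbp5, Egfl7, Fabp4, Cd200, Ly6c1, Plvap, Esm1, Emcn, Kdr and Flt1, genes known from endothelium. Igfbp5 had 119 UMIs in 4 control members and 1 UMI in FA, and Ly6c1 had 67 UMIs in 9 control members and 0 in FA. Of the endothelial list, 7 of 7 measured genes were lower in FA, of the myeloid list 9 of 9 higher and of the proximal tubule list 6 of 6 lower. The 10 measured mitochondrially encoded genes had 9 lower in FA (median -2.35, and -1.33 with a mitochondrial share of at most 20%). These are sums over the gate, and the median member ran the other way, with a mitochondrial share of 0.957% in control (highest 42.6%) and 1.502% in FA (highest 37.7%). The part of such other-cell RNA in these ranks was not tested.

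Applied without likely doublets, a step chosen after values were seen, the rule named Atf3 and Pdia6 again over 67 FA and 12 control members, and otherwise different genes. Odc1, the enzyme that opens polyamine synthesis, was 9.89-fold higher in FA (4.19 to 30.7), in 51 and 4 members. Atf3 was 8.67-fold higher (4.53 to 19.1), in 37 and 2 members. Bhlhe40, a transcription factor of cytokine-making T cells, was 9.43-fold higher (2.55 to 78.9), and Cish, a feedback gene of cytokine signals, 6.97-fold (1.87 to 58.5). Pdia6 and Hspe1, which fold proteins, were 12.7-fold (2.22 to 510) and 5.20-fold (2.18 to 16.2) higher. Hilpda, Icam1, Cwc25 and Ifrd1 completed the higher set. Control counts were small, with 1 UMI each of Pdia6 and Hilpda and 2 each of Bhlhe40, Cish, Icam1 and Cwc25. A count of 1 was kept while a 0 was set to 3, so a gene at 1 could rank above a gene at 0. Lower in FA were Ckb, Klrk1, Cd28, Txk, Gimap4, Ly6c2, Gimap6, Adgre5, Zfp36l2 and Rab21. Of the 20 control UMIs of Rab21, 65.0% were in 1 of the 7 control members with it, and its ratio of 0.323 (0.183 to 0.586) became 0.864 (0.381 to 2.29) without that member. Klrk1 was at 0.152 (0.105 to 0.220). Gimap4, a small GTPase gene of lymphocytes, was at 0.275 (0.164 to 0.467), in 23 of 67 and 8 of 12 members. Zfp36l2, an RNA-binding protein of quiescent cells, was at 0.313 (0.237 to 0.415). Without the control member with most of the gene's UMIs, the ratios of Odc1, Bhlhe40 and Cish were 14.9, 17.4 and 12.9, and that of Atf3 was 68.2. Without such an FA member they were 9.06, 8.73 and 6.47, and that of Atf3 was 7.79.

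**Figure D4:**
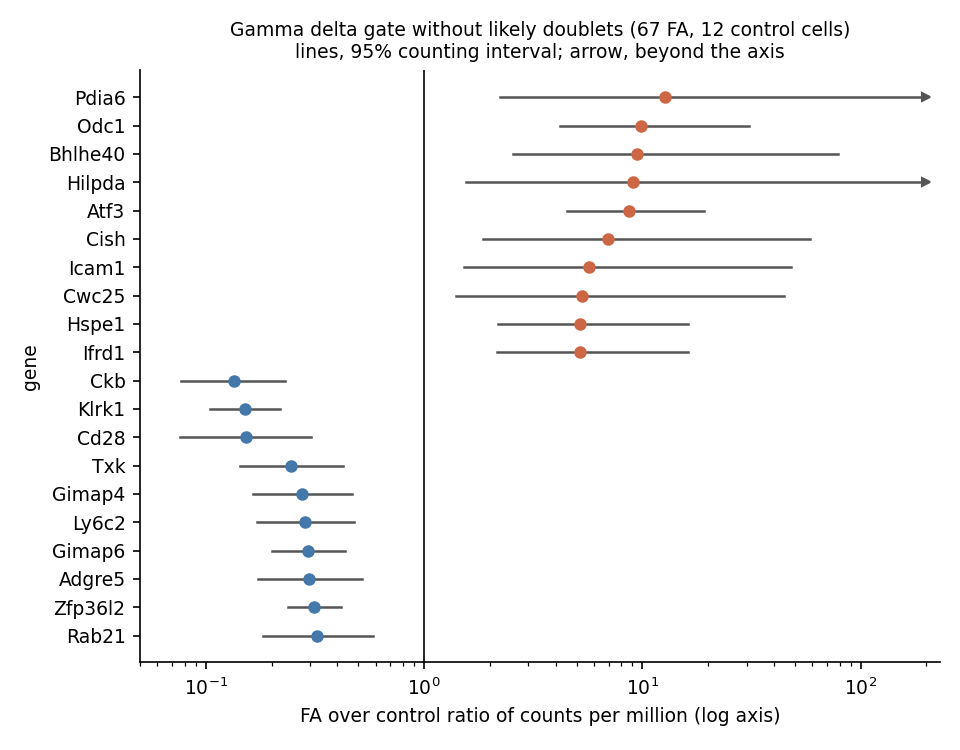
Ratio of CPM in FA to CPM in control (log axis) for the 10 highest and 10 lowest ranked genes in 67 FA and 12 control cells of the gate without likely doublets, with lines for the counting interval and arrows beyond the axis. Pdia6 stands highest at 12.7 and Ckb lowest at 0.134. All 20 intervals lie on 1 side of a ratio of 1, which is no separate support, since the genes were picked for their extreme ratios. That of Rab21 does not without 1 control cell. Pdia6 and Hilpda, each with 1 control UMI, have no ratio without the control cell that holds it.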

How the data were processed

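The deposited matrix holds UMI counts of 21855 genes in 28678 barcodes of both libraries, checked to be whole numbers. Per the submitters' processing notes, Seurat and the mm10 build were used by the authors; the sources used here name no aligner, counter or version. Barcodes starting C3 were taken as control by that letter, since FA3 names the FA library. Names that differed between the libraries (1255 above 0 in control alone, 2543 in FA alone) were joined in 230 pairs by RefSeq synonyms, a join added after seeing the data. Genes listed at 0 throughout a library got no fold. 1 gene of the interleukin 17 list is not reported here, and the counts of that list and of cells sorted by it leave it out.

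The members, gene lists and comparisons were chosen with earlier results of these data known. UMIs were summed per gate and scaled to a sum of 1000000 (CPM). Ratios have exact conditional binomial intervals, shares Clopper-Pearson intervals and sums exact Poisson intervals, all covering counting error only. A 0 within a gate was set to 3 counts over the gate for a bound. The CD4 and CD8 gates needed 2 CD3 UMIs, 1 UMI of their own co-receptor, none of the other or of Foxp3, and no Trdc or Tcrg-C1. The NK gate needed 2 UMIs of Ncr1 and Klrb1c, the B cell gate 2 of Cd79a and Ms4a1, both without CD3 UMIs. Genes of these gating rules, the B cell gate's aside, were left out of gate comparisons.

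Ranked genes had 200 CPM and 20 UMIs in the higher library and, there, a level no lower than over all filtered cells. Against other gates they had 200 CPM and 20 UMIs in the higher gate of each library and a ratio past 1.5 in the same direction in both, ranked by the geometric mean. FA against control took the 10 highest and 10 lowest ratios, the pooled CD4 and CD8 gates 10 and 5, and the NK gate 5 and 5. Mitochondrial, ribosomal protein, haemoglobin, numbered predicted, sex-linked and rule genes were not ranked. Receptor genes and members of the interleukin 17 and type 1 lists were named by list, with up to 4 of each other list by UMIs; further members of those lists were named after their values were seen. Likely doublets, kept in the main values, were the top cells by a rewritten Scrublet score at 0.8% per 1000 barcodes. Promoter sequences are from RefSeq, GRCm38.p6, and loci from GENCODE on mm10. Python 3.11.15, NumPy 2.4.6, SciPy 1.17.1, pandas 2.3.3 and scikit-learn 1.9.0 were used. The interval code was tested on simulated data. Alternatives covered the gate, the cell filter, doublets, scaling, thresholds and thinning.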

Additional observations from a re-analysis of the deposited data

How the results depend on the processing

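No paired analysis was possible because each group is 1 library. With 17 control members, most values in control rest on few UMIs, and a gene's absence there was not detectable apart from low depth. Over 1384 values recomputed under an alternative, 1123 stayed within their interval or within 1.5 times for counts, 250 moved and 11 changed direction, and the cause was not tested.

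With Trac, Trbc1 and Trbc2 all at 0, the gate was 0.0159% of control and 0.0628% of FA cells (ratio 3.95), its interleukin 17 list had a median log2 ratio of 1.45 to the NK gate, and 0% of its 10 FA cells held Ifng, Trac, or Il17a with Ifng. That setting left 1 control member, so it gave no FA to control value, and Rgcc turned to -1.17 in FA against the pooled CD4 and CD8 gates. With 3 UMIs of Trdc and Tcrg-C1 the FA share was 0.377%. The Trac share of FA members was 5.06% at 1000 UMIs per cell, and 0% by construction where Trac was required at 0.

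Genes higher in FA than in control numbered 413 with 50 UMIs as the minimum, 657 at 2-fold and 720 without members above 10000 UMIs. Genes lower numbered 239, 442 and 560 in these settings, 504 without likely doublets and 487 without members with B cell or myeloid UMIs. The type 1 list turned from -0.68 to 0.30 with Trdc alone in FA against control, and moved from -0.29 to 0.44 in control against the pooled gates without members with B cell or myeloid UMIs. Without those members, FA over control turned to -2.55 for Adamts1 and -0.96 for Akap12, and Cd81 in control turned to -0.85. Without members above 10000 UMIs, Cebpd turned to -0.95, Adamts1 to -1.36, Akap12 to -0.95 and Cd81 in FA against the pooled gates to -1.01. Without likely doublets Cd81 in control was at -0.0033. Single genes were also recomputed without the member that held most UMIs of the gene, a step chosen after values were seen. Akap12 in FA over control turned to -0.97, and Adamts1 was at 0.20, Maf at -0.30 and, without likely doublets, Rab21 at -0.21.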
